A study of Mus musculus with 4 samples.

Results

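The 33 genes described here make, modify and move the ceramides of the skin barrier, from the condensation of serine with an acyl chain to the lipases and ceramidases of the outermost layers. The rule lists them by known function and sets no threshold on measured values, but the members were chosen with earlier results of these data known. All 33 were found by symbol among the 45803 symbols of the deposited table, in 113 transcript rows. The RNA that was sequenced came from keratinocytes, the cells that form most of the epidermis, of mice at postnatal day 0. The cKO group carried Cre recombinase under the keratin 14 promoter, which is active in basal keratinocytes, and floxed Mettl14 on both alleles (K14Cre,Mettl14F/F; 2 libraries). The Ctrl group carried the same Cre and 1 floxed allele beside an unmodified one (K14Cre,Mettl14F/+; 2 libraries), so Cre can act on 1 Mettl14 allele there too. The libraries of each group are numbered 1 and 2. No label names the animals behind them, so the p-values measure no more than how these libraries varied, possibly for technical reasons.

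Ceramides are built on a sphingoid base in the endoplasmic reticulum, where ceramide synthases join it to a fatty acid. In the epidermis the fatty acid can be elongated to an ultra-long chain, hydroxylated at its far end and esterified with linoleate, which gives the acylceramides found in few other tissues. These lipids are glucosylated, loaded into lamellar bodies and secreted in the granular layer, after which lipoxygenases oxidise the linoleate and part of the ceramide is bound to the cornified envelope. Loss of many of these genes causes ichthyosis in humans or a lethal water loss in newborn mice. METTL14 is a subunit of the complex that writes N6-methyladenosine on RNA, preferably within motifs such as GGACT.

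Mettl14, the targeted gene, measured 5.89 and 3.79 FPKM (fragments per kilobase of transcript, scaled to library size) in cKO libraries 1 and 2, against 7.00 and 6.40 FPKM in Ctrl libraries 1 and 2. The cKO libraries lay below both Ctrl libraries, and limma's test over all genes did not pass (adjusted p = 0.959). The labels used here do not say which exons are floxed, so the total of the gene is a limited check of the deletion. From the steps between low values, sequencing depth worked out at 16883879 and 25692763 reads for cKO and 17365044 and 23413420 reads for Ctrl. The libraries stood apart by number more than by genotype, with r = 0.9766 between cKO 1 and Ctrl 1 and 0.9755 between cKO 2 and Ctrl 2 across genes, which are not independent replicates, against 0.9559 between the cKO libraries and 0.9662 between the Ctrl libraries. Retained-intron transcripts held 4.01% and 2.28% of all FPKM in cKO libraries 1 and 2, against 4.66% and 2.83% in Ctrl libraries 1 and 2. Keratinocyte markers were present, except that Krt1 was listed at 0 in every library. The summed level of 7 basal markers was 2453 and 3828 FPKM in cKO, against 3836 and 4950 in Ctrl, and 3 were lower without overlap. The 11 granular markers summed to 5477 and 3915 FPKM in cKO, against 6437 and 4090 in Ctrl. Of these, 2 were higher and 2 lower without overlap. For 10 markers of sebocytes, which use several of the same enzymes, the sums were 105 and 179 FPKM in cKO, against 90.8 and 132 in Ctrl. Here 2 were higher (Mc5r and Plin5) and 1 lower (Mogat1) without overlap. None of these reached 1 FPKM in 2 or more libraries, the filter for the genes tested, so they lie near the floor. In leukocyte markers, the sums were 160 and 243 FPKM in cKO and 284 and 343 in Ctrl. Of these markers, 6 of 7 were lower without overlap. Over all genes tested, 16.2% were higher and 16.6% lower without overlap. Endothelial markers did not reach 1 FPKM. In such bulk samples fewer cells of a type and less RNA per cell cannot be told apart, and the part of these markers in the results below was not tested.

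No barrier lipid gene passed the test between cKO and Ctrl in the fit by genotype alone. Of the 33, 0 had an adjusted p under 0.05 in limma, where the background over all 13817 genes tested was also 0.0%. At an unadjusted p under 0.05 there were 2, the desaturase gene Degs1 and the lipase cofactor gene Abhd5, both higher in cKO. That is 6.06% of the 33, against 4.96% of all genes (686 genes). Both cKO libraries lay above both Ctrl libraries for 9 of 33, or 27.3%, where the share over all genes was 16.2%. Both lay below for 2 of 33, or 6.06%, against 16.6% of all genes. The remaining 22 overlapped. The 9 were Sptlc2, Slc27a4, Elovl4, Degs1, Degs2, Pnpla1, Abhd5, Alox12 and Smpd1, and the 2 were Lipk and Asah1. The members are mostly abundant genes, at a median percentile of 86.5 for level, and the shares over all genes depend on level. Among genes with a mean of at least 5 FPKM, 25.8% of members and 19.02% of all genes were higher in cKO without overlap. There 6.45% of members and 13.52% of all genes were lower. When columns were scaled to equal sums, only Degs1, Degs2, Abhd5 and, on the lower side, Lipk were left without overlap. The share of members higher in cKO was then 9.09%, below the 16.2% of all genes, so the excess of higher members did not hold under that scaling; the share lower in cKO was 3.03%, against 17.85% of all genes. Leaving out 1 library leaves fewer values to overlap and raises both shares over all genes. The members higher in cKO were then 20 (60.6%, against 27.6% of all genes) without cKO replicate 2 and 18 (54.5%, against 24.0%) without Ctrl replicate 1. They were 13 (39.4%, against 39.6% of all genes) without cKO replicate 1 and 11 (33.3%, against 34.65%) without Ctrl replicate 2, so the excess was gone without either of these libraries. The members lower in cKO were 5 (15.2%, against 35.8% of all genes) without cKO replicate 2 and 2 (6.06%, against 31.3%) without Ctrl replicate 1. They were 10 (30.3%, against 38.2%) without cKO replicate 1 and 9 (27.3%, against 34.1%) without Ctrl replicate 2.

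**Figure D1:**
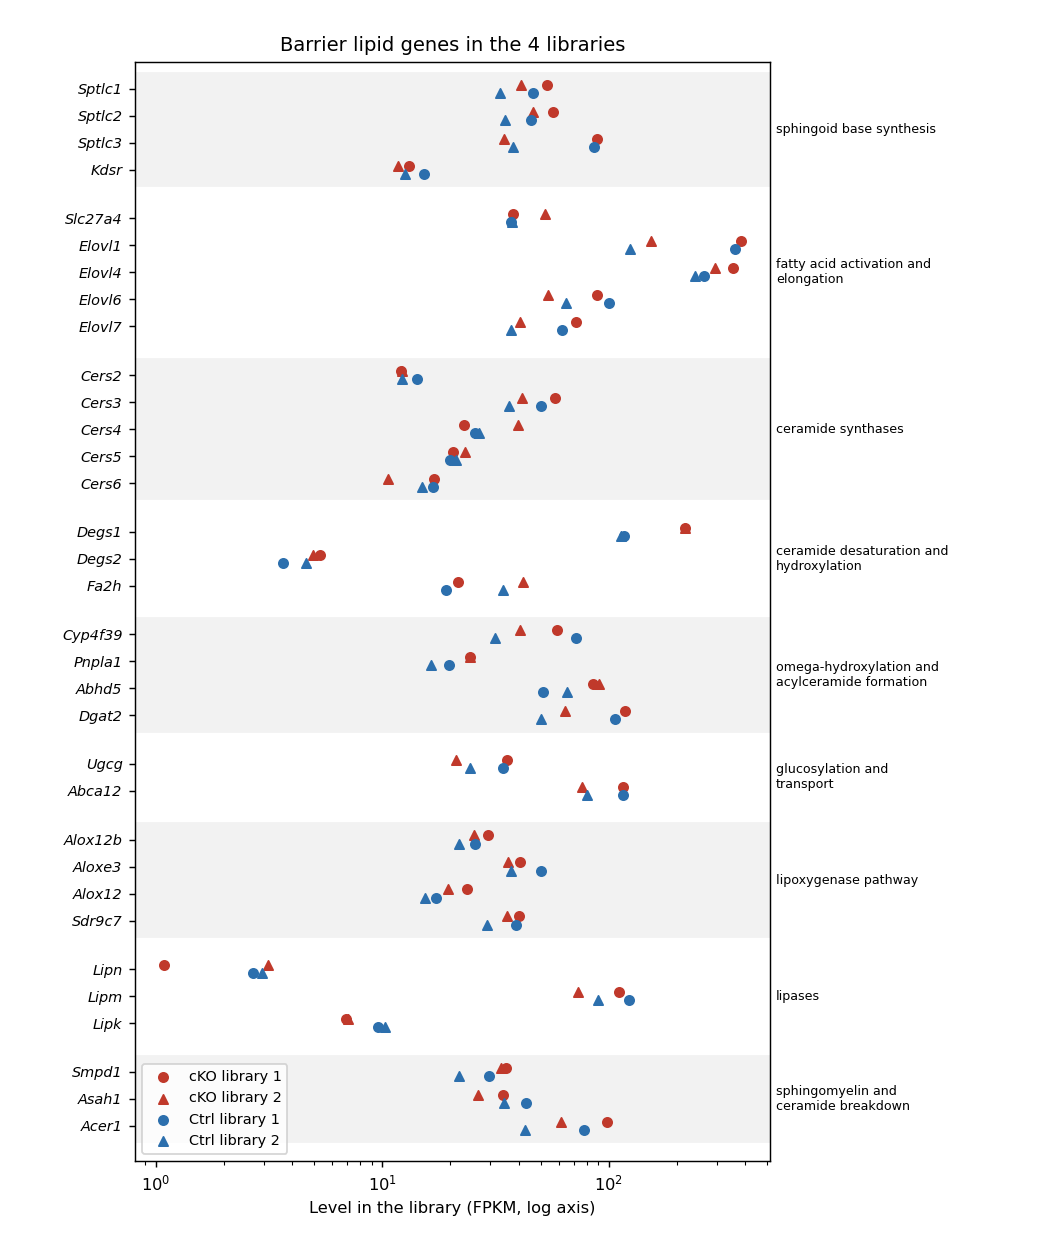
Level of each of the 33 barrier lipid genes in each library, in FPKM on a log axis, grouped by pathway step; circles are libraries numbered 1, triangles libraries numbered 2, red cKO and blue Ctrl. Degs1 shows both cKO libraries (216 and 217 FPKM) well right of both Ctrl libraries (116 and 113 FPKM), while for Elovl1 and Sptlc3 the symbols separate by library number and not by colour.

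The median difference over the 33, cKO minus Ctrl on the log2(FPKM + 1) scale, was 0.19, against -0.03 over all genes tested (0.01 over genes with a mean of at least 5 FPKM). It was 0.06 between the libraries numbered 1 and 0.21 between those numbered 2. Within both numbers the cKO library was the higher one for 19 of 33 genes, or 57.6%, against 31.8% of all genes, and the lower one for 7, or 21.2%, against 37.6% of all genes. The median rested on single libraries, at -0.04 without Ctrl replicate 2, 0.06 without cKO replicate 1, 0.29 without cKO replicate 2 and 0.31 without Ctrl replicate 1. Since the members belong to one pathway and share all 4 libraries, these shares are a description and carry no test. The summed FPKM of the 33 was 2374 and 1757 in cKO, against 2100 and 1457 in Ctrl, that is 0.448% and 0.278% of all FPKM in cKO and 0.416% and 0.238% in Ctrl.

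Degs1 had the largest difference of the 33 genes. It encodes dihydroceramide desaturase, which puts the double bond into the sphingoid base and so turns dihydroceramide into ceramide. It lies on chromosome 1 from 182275772 to 182282804 on the minus strand (GRCm38; ENSMUSG00000038633). Degs1 measured 216 and 217 FPKM in the cKO libraries, against 116 and 113 FPKM in the Ctrl libraries. The groups were far apart, and the libraries within each group were nearly equal. The mean was 217 ± 0.601 FPKM in cKO and 115 ± 2.05 in Ctrl (SD, n = 2 each), 1.89-fold as high in cKO. The log2 difference was 0.91 ± 0.24 (SE; 95% interval 0.33 to 1.49; unadjusted p = 0.00908, adjusted p = 0.959, limma). It was 0.89 within number 1 and 0.93 within number 2, and stayed between 0.853 and 0.943 under every alternative run. For every gene, the SE from limma draws also on the spread of other genes, so it is not the spread of Degs1 alone. About 7269 and 11238 reads lay behind the cKO values and 3883 and 5386 behind the Ctrl values.

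The other modifiers of the ceramide backbone and chain differed less. Degs2, a homologue whose product hydroxylates the base to form phytoceramide, was far less abundant, with 5.33 and 4.97 FPKM in cKO, against 3.66 and 4.63 in Ctrl. Its groups did not overlap, but the Ctrl library numbered 2 lay close to cKO (difference 0.26 ± 0.23). Strandedness is not given, so reads of the antisense neighbour Evl may not be separable where exons overlap. Fa2h, the fatty acid 2-hydroxylase of keratinocytes and sebocytes, measured 21.6 and 41.8 FPKM in cKO, against 19.2 and 34.2 in Ctrl. Its libraries split by number, with the higher values in the libraries numbered 2. The sums of the sebocyte, basal, leukocyte, and hair shaft and inner root sheath markers were also higher there. Those of the spinous and granular markers were lower there, and the part of any of these cells was not tested.

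The 4 genes of omega-hydroxylation and acylceramide formation had a median difference of 0.33, which was 0.006 without Ctrl replicate 2, 0.117 without cKO replicate 1 and 0.583 without Ctrl replicate 1. Abhd5 (CGI-58; chromosome 9, 122351608 to 122381524) encodes a cofactor that recruits PNPLA lipases to triglyceride, and its loss causes Chanarin-Dorfman syndrome in humans. It measured 84.8 and 90.4 FPKM in cKO, against 51.3 and 65.0 in Ctrl, with no overlap (log2 difference 0.59 ± 0.23, 95% interval 0.02 to 1.16, unadjusted p = 0.0441, adjusted p = 0.959, limma). Exons of Abhd5 overlap those of A730085K08Rik on the opposite strand, which was listed at 4.06 and 3.43 FPKM in cKO and 7.00 and 3.15 in Ctrl. Pnpla1 (chromosome 17, 28858411 to 28890309) encodes the transacylase that moves linoleate onto the omega-hydroxyl group of the ceramide. Pnpla1 measured 24.4 and 24.5 FPKM in cKO, against 19.6 and 16.4 in Ctrl, again with no overlap (difference 0.43 ± 0.20). Cyp4f39, the mouse counterpart of the human omega-hydroxylase CYP4F22, measured 59.1 and 40.5 FPKM in cKO, against 71.7 and 31.6 in Ctrl. For Cyp4f39 the Ctrl libraries enclosed the cKO libraries and the difference was 0.04 ± 0.43. Dgat2, an acyltransferase of triglyceride synthesis, measured 118 and 63.9 FPKM in cKO, against 106 and 50.3 in Ctrl, and separated by number.

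**Figure D2:**
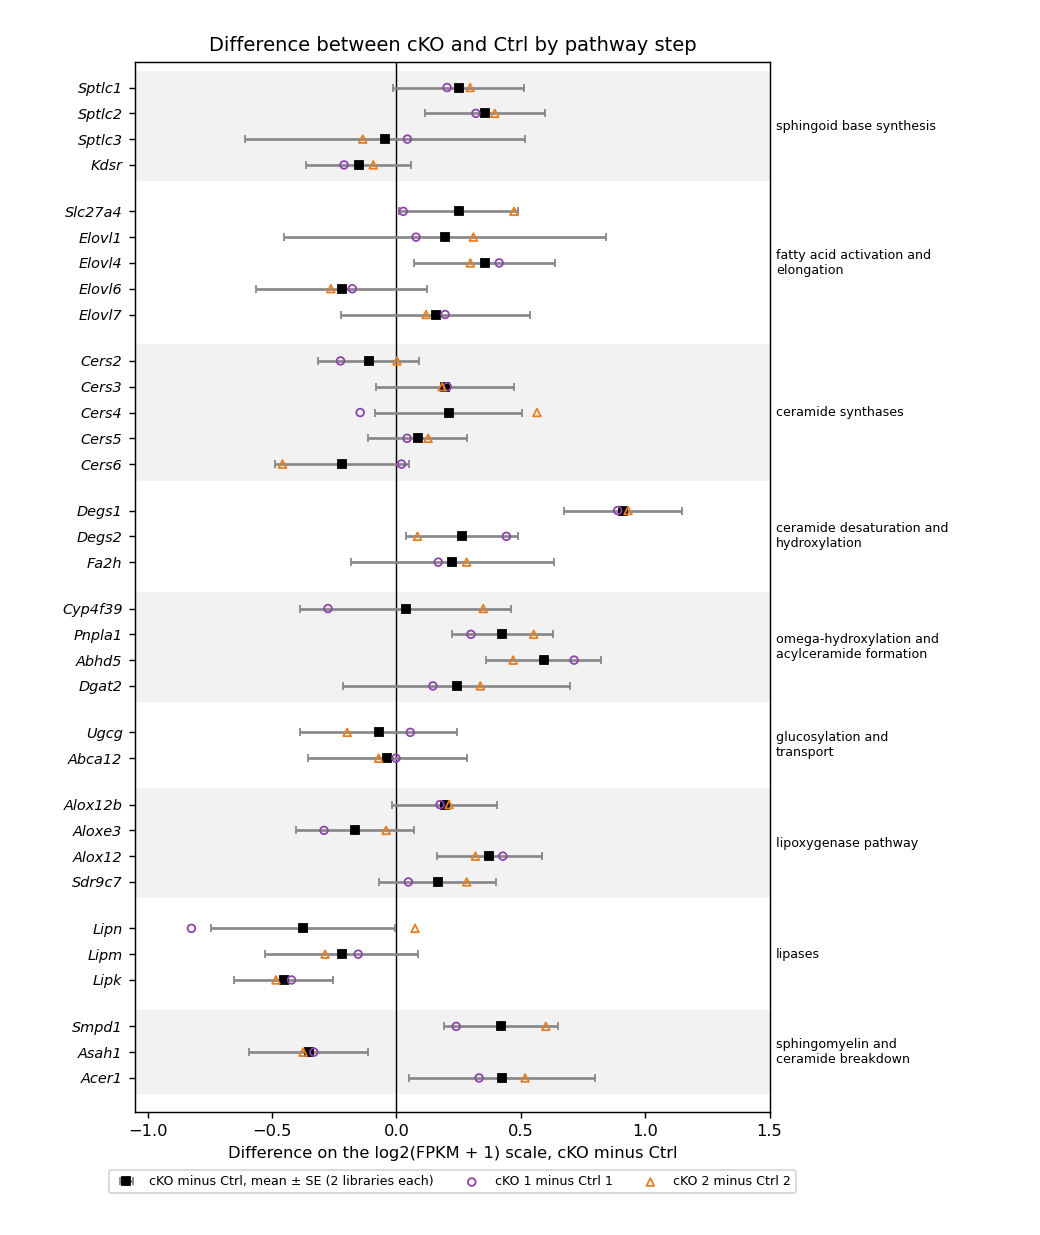
Difference between cKO and Ctrl on the log2(FPKM + 1) scale for each of the 33 genes by pathway step; black squares are differences between means of 2 libraries a group, grey bars the SE from limma, purple circles cKO 1 minus Ctrl 1 and orange triangles cKO 2 minus Ctrl 2. Degs1 lies furthest right at 0.91 and Lipk furthest left at -0.45, and for both the circle and the triangle sit close together.

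The promoter sequences of 4 members with non-overlapping groups are shown because these 4 had the largest differences among those whose RefSeq start lies within 50 bases of the start of their most abundant transcript. Each is the 250 bases upstream of the RefSeq start (GRCm38.p6), 5′ to 3′ on the strand of the gene. Capitals mark matches, on either strand, to the CCAAT box (letters CCAAT), the GC box (letters GGGCGG), the TATA box (letters TATAAA), the AP-1 motif (letters TGANTCA) and the CACCC box (letters CACCC). The Abhd5 window is chr9:122351366-122351615 (plus strand), that of Pnpla1 chr17:28858161-28858410 (plus), that of Smpd1 chr7:105554110-105554359 (plus) and that of Alox12 chr11:70255371-70255620 (minus).
Abhd5: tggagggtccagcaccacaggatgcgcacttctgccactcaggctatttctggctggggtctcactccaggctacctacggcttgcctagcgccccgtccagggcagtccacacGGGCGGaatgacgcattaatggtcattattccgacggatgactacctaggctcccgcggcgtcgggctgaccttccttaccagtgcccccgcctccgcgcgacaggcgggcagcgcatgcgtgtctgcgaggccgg
Pnpla1: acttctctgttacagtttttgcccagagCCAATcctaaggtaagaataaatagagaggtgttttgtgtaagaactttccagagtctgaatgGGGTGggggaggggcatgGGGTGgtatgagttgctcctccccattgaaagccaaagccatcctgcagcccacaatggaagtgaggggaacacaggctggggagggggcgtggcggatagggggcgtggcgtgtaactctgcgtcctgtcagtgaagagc
Smpd1: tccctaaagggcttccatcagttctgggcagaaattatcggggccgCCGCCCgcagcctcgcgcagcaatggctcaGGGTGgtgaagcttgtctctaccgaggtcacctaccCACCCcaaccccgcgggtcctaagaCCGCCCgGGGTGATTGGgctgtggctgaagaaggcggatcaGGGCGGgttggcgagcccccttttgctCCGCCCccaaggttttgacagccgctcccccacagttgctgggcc
Alox12: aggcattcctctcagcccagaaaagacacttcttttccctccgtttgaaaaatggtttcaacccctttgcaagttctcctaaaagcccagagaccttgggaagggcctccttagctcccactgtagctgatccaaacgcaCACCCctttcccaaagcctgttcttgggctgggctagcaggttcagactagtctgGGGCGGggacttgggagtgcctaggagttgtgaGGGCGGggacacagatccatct

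Abhd5 and Smpd1 had GC-rich windows (64.8% G or C in each) with 1 and 4 GC boxes. Pnpla1 and Alox12 had 54.0% each, with 0 and 2 GC boxes. Among 30 windows of 28 members found in RefSeq, 17 (56.7%) held a GC box, against 32.7% of 32851 promoter windows of the same length. A CCAAT box was in 8 of 30 (26.7%, against 33.9%), a TATA box in 1 (3.33%, against 12.4%), an AP-1 motif in 1 (3.33%, against 6.75%) and a CACCC box in 17 (56.7%, against 52.0%). Matches may overlap between motifs and describe the letters only. The 32851 windows were not limited to genes tested here. Only 20 members had a RefSeq start within 50 bases of the start of their most abundant transcript, but all 30 windows were counted. The RefSeq start of Degs1 lies 609 bases from the start of its most abundant transcript, so its window is not shown. The motif GGACT occurred 1 time in the 2048-nt main transcript of Degs1 and 5 times in that of Abhd5. Over the most abundant transcripts of all 33 genes its median was 1.14 per kilobase, against 1.03 over 13730 tested genes. For Sptlc2, Aloxe3 and Cers4 that transcript is not annotated as protein coding, and for Lipn it is only 632 nt long. No methylation was measured in these libraries.

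Sphingoid base synthesis begins with serine palmitoyltransferase, a complex of SPTLC1 with either SPTLC2 or SPTLC3. Sptlc1 measured 53.4 and 41.1 FPKM in cKO, against 46.3 and 33.3 in Ctrl, and Sptlc2 56.7 and 46.1 FPKM in cKO, against 45.3 and 34.8 in Ctrl. Sptlc2 did not overlap between the groups, although its lowest cKO value was close to its highest Ctrl value (difference 0.36 ± 0.24). Sptlc3, whose product favours shorter acyl chains, measured 89.0 and 34.5 FPKM in cKO, against 86.3 and 38.0 in Ctrl. Its libraries separated by number, with a log2 difference of -1.25 for number 2 minus number 1, and the difference between genotypes was -0.05 ± 0.56. Kdsr, the reductase of the next step, measured 13.1 and 11.7 FPKM in cKO, against 15.3 and 12.6 in Ctrl. The median difference of the 4 genes was 0.10.

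Fatty acids are activated by FATP4, the product of Slc27a4, and lengthened by elongases. Slc27a4 measured 37.7 and 52.5 FPKM in cKO, against 37.0 and 37.6 in Ctrl, so that 1 cKO library was level with Ctrl and the other above it (difference 0.25 ± 0.24, and 0.02 without cKO replicate 2). Elovl4, which makes the ultra-long chains of acylceramides, measured 351 and 294 FPKM in cKO, against 264 and 239 in Ctrl, with no overlap (difference 0.36 ± 0.28). Elovl1, the elongase of saturated very long chains, was the most abundant member in the libraries numbered 1 and measured 382 and 154 FPKM in cKO, against 362 and 124 in Ctrl. It too separated by number, at -1.42 for number 2 minus number 1, with a genotype difference of 0.19 ± 0.65. Elovl7 measured 71.6 and 40.3 FPKM in cKO, against 62.4 and 37.1 in Ctrl, and likewise separated by number. Elovl6, which acts on shorter saturated chains and is also used by sebocytes, was lower in the cKO library of each number, at 88.3 and 54.0 FPKM in cKO, against 99.98 and 65.0 in Ctrl, with overlap (difference -0.22 ± 0.34).

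The 5 ceramide synthases had a median difference of 0.09, and each overlapped between the groups. Cers3, the synthase that takes ultra-long chains and is needed for acylceramides, was the most abundant, with 58.1 and 41.4 FPKM in cKO, against 50.3 and 36.3 in Ctrl (difference 0.19 ± 0.28). Cers2, which prefers very long chains, measured 12.1 and 12.2 FPKM in cKO, against 14.3 and 12.2 in Ctrl. Cers5 measured 20.5 and 23.2 FPKM in cKO, against 19.9 and 21.2 in Ctrl, and Cers6, which like Cers5 prefers palmitate, 16.9 and 10.6 FPKM in cKO, against 16.7 and 14.9 in Ctrl. Cers4 measured 23.0 and 39.9 FPKM in cKO, against 25.5 and 26.7 in Ctrl, and its 2 cKO libraries lay on opposite sides of Ctrl.

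Glucosylation and transport showed no separation of the groups. Ugcg encodes glucosylceramide synthase, which makes the form loaded into lamellar bodies, and measured 35.5 and 21.2 FPKM in cKO, against 34.1 and 24.4 in Ctrl. Abca12, the lipid transporter mutated in harlequin ichthyosis, measured 116 and 75.9 FPKM in cKO, against 116 and 79.8 in Ctrl (difference -0.04 ± 0.32, 95% interval -0.83 to 0.75). The interval of Ugcg ran from -0.85 to 0.71, so for neither gene was equality shown.

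The lipoxygenase genes lie on chromosome 11, with Aloxe3 at 69125896 to 69149115 next to Alox12b at 69156989 to 69169792, and Alox12 at 70241457 to 70255353. 12R-LOX and eLOX3, the products of Alox12b and Aloxe3, act in sequence on the linoleate of the acylceramide. Alox12b measured 29.2 and 25.4 FPKM in cKO, against 25.8 and 21.8 in Ctrl, with overlap. Aloxe3 measured 40.7 and 36.1 FPKM in cKO, against 49.97 and 37.1 in Ctrl, also with overlap and with the opposite sign (-0.17 ± 0.24, against 0.19 ± 0.21 for Alox12b). Alox12, the platelet-type 12-lipoxygenase, measured 23.7 and 19.5 FPKM in cKO, against 17.4 and 15.5 in Ctrl, with no overlap (0.37 ± 0.21). Sdr9c7, a dehydrogenase of the oxidised product, measured 40.3 and 35.6 FPKM in cKO, against 39.0 and 29.1 in Ctrl, and overlapped.

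The epidermal lipase genes Lipk, Lipn and Lipm are neighbours on chromosome 19, between 34008290 and 34122687. Each of the 3 had a negative difference, and the median is that of Lipn, -0.37 ± 0.37, which has few reads. Lipk measured 6.92 and 7.05 FPKM in cKO, against 9.61 and 10.3 in Ctrl, which was 0.703-fold as high in cKO with close libraries in each group (difference -0.45 ± 0.20, unadjusted p = 0.0655, adjusted p = 0.959, limma). About 248 and 385 reads lay behind the cKO values of Lipk and 355 and 510 behind its Ctrl values. Lipm, the most abundant of the 3 genes, measured 111 and 73.2 FPKM in cKO, against 123 and 89.5 in Ctrl, and overlapped. Strandedness is not given, so reads of Lipm may not be separable from those of Ankrd22 where exons overlap on the opposite strand. Lipn, mutated in a late-onset human ichthyosis, measured 1.09 and 3.15 FPKM in cKO, against 2.70 and 2.94 in Ctrl. Only about 26 reads lay behind the lower cKO value of Lipn, and at that depth no difference can be read from it.

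Of the genes that break down sphingolipids, Smpd1 and Asah1 separated in opposite directions. Smpd1 encodes acid sphingomyelinase, which releases ceramide from sphingomyelin, and measured 35.2 and 33.6 FPKM in cKO, against 29.6 and 21.8 in Ctrl (difference 0.42 ± 0.23, and 0.21 without Ctrl replicate 2). Asah1 encodes acid ceramidase, which cleaves ceramide, and measured 34.1 and 26.4 FPKM in cKO, against 43.2 and 34.5 in Ctrl (difference -0.35 ± 0.24, and -0.17 without cKO replicate 2). Its highest cKO value lay only just below its lowest Ctrl value. Acer1, the alkaline ceramidase of the upper epidermis, measured 97.6 and 61.7 FPKM in cKO, against 77.3 and 42.8 in Ctrl. Acer1 was higher in the cKO library of each number, at 0.33 and 0.52, but its groups overlapped (difference 0.42 ± 0.37, and 0.01 without Ctrl replicate 2).

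**Figure D3:**
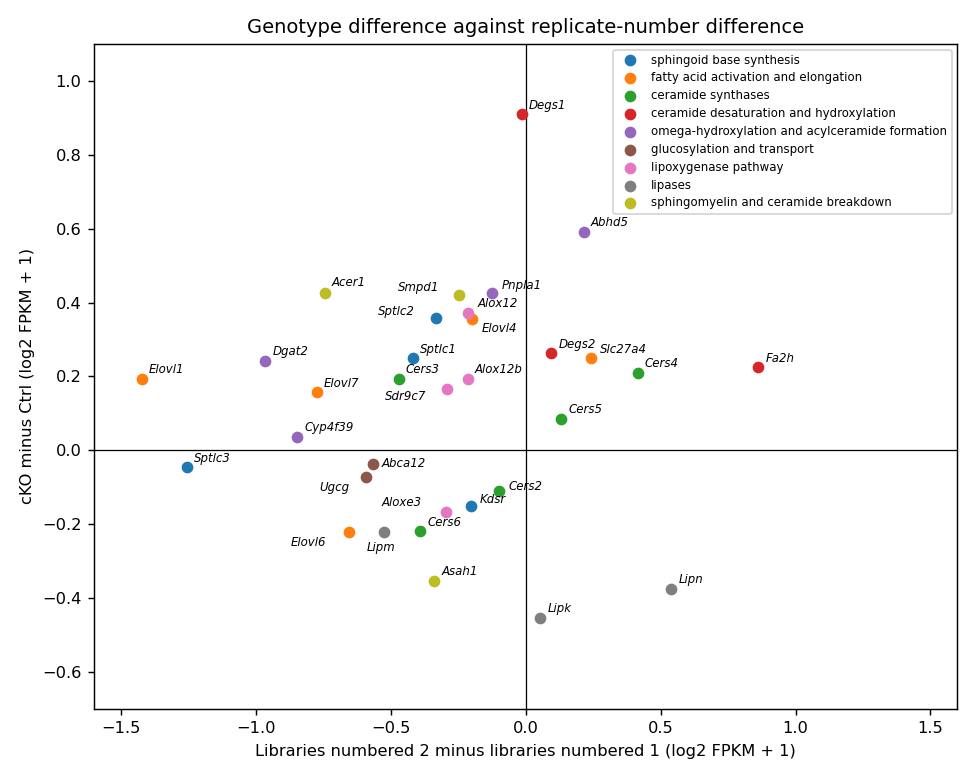
Difference between cKO and Ctrl (vertical axis) against the difference between libraries numbered 2 and libraries numbered 1 (horizontal axis), both on the log2(FPKM + 1) scale, 1 point a gene, coloured by pathway step. Most points lie left of 0, down to -1.42 for Elovl1, and Degs1 stands at the top with a number difference of -0.02.

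The libraries differed by number more than by genotype for 21 of 33 genes (63.6%, against 62.4% of all genes tested). The direction was uneven, since 25 of the 33 (75.8%) were higher in the libraries numbered 1, against 42.3% of all genes. The median difference, number 2 minus number 1, was -0.29 for the members and 0.08 for all genes. Elovl1, Sptlc3, Dgat2, Cyp4f39, Elovl7 and Acer1 differed most in this direction, at -1.42, -1.25, -0.97, -0.85, -0.78 and -0.75. The sum of the spinous markers was 16384 and 9988 FPKM in cKO libraries 1 and 2, against 18114 and 8160 in Ctrl libraries 1 and 2. Krt10 made up most of that sum, and Krt10, Dsc1 and Dsg1a were higher in the libraries numbered 1. Calm4 went the other way, at 3015 and 3203 FPKM in cKO libraries 1 and 2, against 1737 and 2291 in Ctrl. The 6 markers of hair shaft and inner root sheath summed to 204 and 621 FPKM in cKO libraries 1 and 2, against 177 and 445 in Ctrl libraries 1 and 2. The retained-intron share was also higher in the libraries numbered 1. The mitochondrial share of reads was 2.90% and 1.14% in cKO libraries 1 and 2, against 4.08% and 1.62% in Ctrl libraries 1 and 2, so it differed with the number and was lower in cKO within each number. The part of any of these in these values was not tested. The differences by number carry no p, because the number has no stated meaning in the labels.

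Part of the summed values came from transcripts that are not annotated as protein coding. Coding transcripts held over 90% of the summed FPKM for 22 of the 33 genes and under 50% for 3, Sptlc2 (23.1%), Aloxe3 (37.7%) and Cers4 (7.14%). The coding transcript of Cers4 measured 1.8 and 1.5 FPKM in cKO, against 2.62 and 2.30 in Ctrl, so its groups separated with the lower values in cKO. A 2539-nt retained-intron transcript of the same gene measured 19.1 and 35.0 FPKM in cKO, against 20.8 and 22.8 in Ctrl, and set the sum. For Abca12 the coding transcript measured 67.2 and 41.2 FPKM in cKO, against 59.2 and 38.6 in Ctrl, a difference of 0.13 in place of -0.04. Coding Asah1 measured 15.9 and 15.8 FPKM in cKO, against 22.7 and 23.6 in Ctrl, which separated the groups further than the sum did (difference -0.52 ± 0.20, unadjusted p = 0.0411, adjusted p = 0.858, limma). Coding Aloxe3 measured 13.7 and 16.9 FPKM in cKO, against 16.3 and 14.95 in Ctrl, a difference of -0.04. The main 2048-nt transcript of Degs1 measured 202 and 210 FPKM in cKO, against 103 and 110 in Ctrl. Within Elovl1, an 1811-nt coding transcript measured 25.7 and 26.2 FPKM in cKO, against 15.1 and 12.9 in Ctrl, whereas the 1137-nt one that held most of the signal measured 214 and 58.4 FPKM in cKO, against 228 and 46.5 in Ctrl. These 2 Elovl1 transcripts were picked after their values were seen. How reads were divided between transcripts of a gene is not given in the sources used here, so levels of single transcripts are less certain than their sums.

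**Figure D4:**
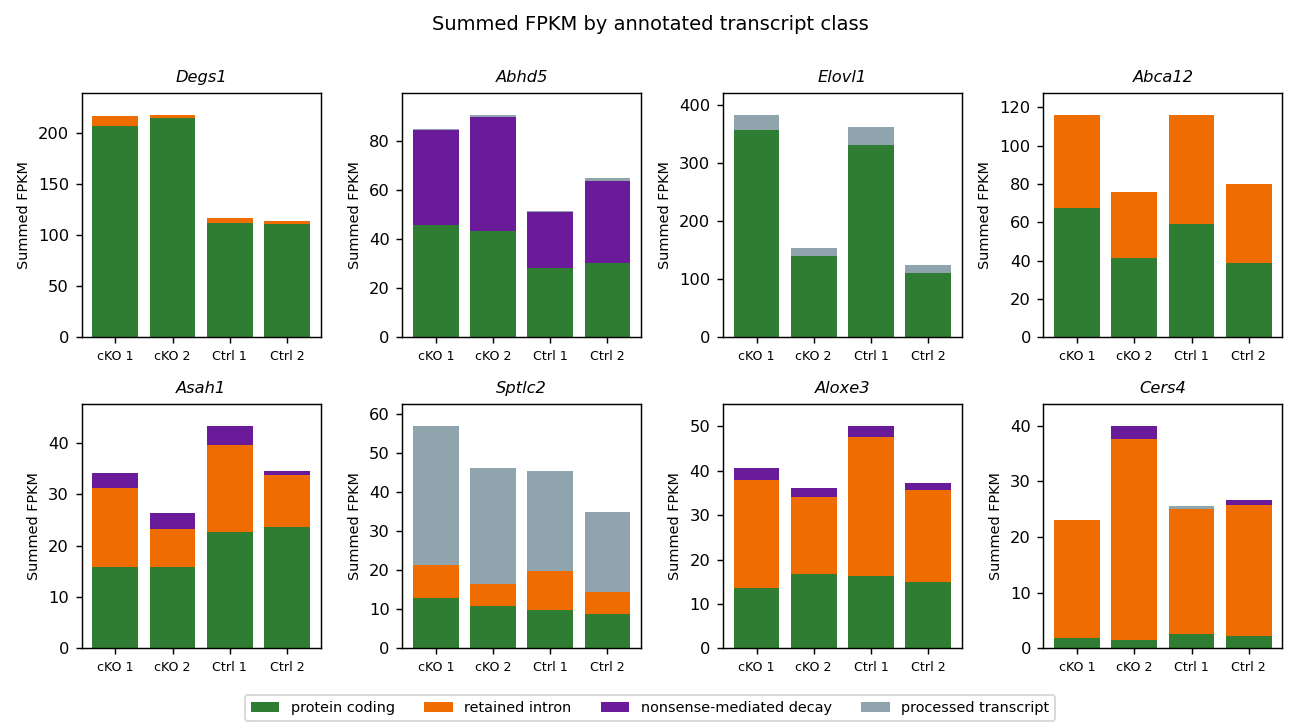
Summed FPKM of 8 members in each library, cKO left and Ctrl right, split by the class that GENCODE M21 gives each transcript (green protein coding, orange retained intron, purple nonsense-mediated decay, grey processed transcript). Degs1 is almost wholly coding, whereas the coding part of Cers4 lies between 1.5 and 2.62 FPKM in the 4 libraries.

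Other genes of the pathway were taken from a list of 63 symbols, of which 58 could be tested, and 0 of 58 passed limma's test over all genes (0 at an unadjusted p under 0.05). Both cKO libraries lay above Ctrl for 18 of 58 (31.0%) and below for 8 (13.8%), against 16.2% and 16.6% of all genes, and the median difference was 0.10, against -0.03 for all genes. The shares over all genes depend on level, and the 58 had a median percentile of 66.0. Over genes with a mean of at least 5 FPKM, 19.02% were higher and 13.52% lower. The shares of the 58 under other scalings or without 1 library are not given here. The 4 with the smallest p were Aldh3a2, Sphk1, Nipal4 and Acsl3. Aldh3a2, the fatty aldehyde dehydrogenase mutated in Sjögren-Larsson syndrome, measured 12.2 and 12.8 FPKM in cKO, against 18.3 and 16.3 in Ctrl. Sphk1, a sphingosine kinase, measured 47.1 and 43.8 FPKM in cKO, against 35.2 and 33.8 in Ctrl. Nipal4, an ichthyosis gene whose product (ichthyin) is needed for acylceramide formation, measured 39.5 and 31.1 FPKM in cKO, against 29.4 and 22.7 in Ctrl. Acsl3, an acyl-CoA synthetase, measured 12.6 and 10.5 FPKM in cKO, against 16.1 and 14.1 in Ctrl. None of the 4 overlapped between the groups, and their unadjusted p lay between 0.0721 and 0.137 (adjusted p = 0.959 for each, limma).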

How the data were processed

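RNA of 2 cKO and 2 Ctrl libraries was made into NEBNext Ultra libraries, per the labels' protocols. The submitters' processing notes name fastp, HISAT2, HTSeq and GRCm38 without roles. The authors deposited 1 value per transcript (110295 rows), taken here as FPKM because value times transcript length, summed, came to about the same total in each library; the header names no unit. The control columns are headed WT and were matched by group and number. Low values of single-transcript genes of 300 to 1000 nt were whole reads within 0.2 in 94.7% to 95.6% of cases, which gave the implied depths. Date-like symbols (162) were restored by transcript ID.

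FPKM were summed per symbol. All genes that reached 1 FPKM in 2 or more libraries were fitted together as log2(FPKM + 1), a scale that understates changes of low genes. The fit used limma 3.58.1 (R 4.3.3, mean-variance trend, genotype only, 2 residual degrees of freedom, Benjamini-Hochberg at 0.05). It was also run on simulated data whose changes were larger than any member's difference, with no difference by library number. That run cannot tell whether changes of the size described here would be found. For a single gene an exact permutation test of 2 against 2 cannot go below p = 0.333 (two-sided). Annotation was GENCODE M21 (GRCm38), and promoters came from RefSeq (GRCm38.p6). Strandedness is not given in the sources used here, and 9 members share exon sequence with a gene on the opposite strand (Elovl1, Elovl6, Cers2, Cers4, Degs2, Pnpla1, Abhd5, Lipm, Acer1). Named genes were all 33 members, Mettl14 and the 4 other pathway genes with the smallest p, besides some single markers and overlapping neighbours. The members and lists were chosen with earlier results of these data known. Python 3.11.15, pandas 2.3.3 and matplotlib 3.10.9 were used.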

Additional observations from a re-analysis of the deposited data

How the results depend on the processing

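With 2 libraries a group, 0 members and 0 genes passed under another pseudocount (0.1), filter, scaling or gene summary. A replicate block, a pairing the labels do not state, called 900 of 13817 genes. Among them were 2 of 33 members, Degs1 (adjusted p = 0.0048, limma) and Abhd5 (0.024), a share near that of all genes. Of the 58 other pathway genes, 1 was called, Tgm1. Deviations of equally numbered libraries correlated at 0.722. Equal column sums left 3 members higher and 1 lower without overlap, moved the median of all genes to -0.084 and that of lipases to -0.429, and turned Cyp4f39 to -0.020. Median-ratio scaling left 1 lower (3.03%, against 17.44% of all genes), because Asah1 then overlapped. It kept 9 higher (27.3%, against 16.53% of all genes), but Sptlc2 then overlapped and Cers5 did not. The lipase median was -0.502 with a pseudocount of 0.1, -0.453 with the most abundant transcript and -0.299 with coding transcripts. Coding transcripts also gave -0.025 for ceramide synthases, -0.386 for Cers4 and 0.134 for Abca12. The most abundant transcript gave 0.134 for Abca12 and 0.005 for Sptlc3. The cause was not tested.

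Leaving out 1 library, where the lone library is assumed to vary like the other group, called 0 members but 9 to 71 genes. It gave 11 to 20 members higher and 2 to 10 lower without overlap (shares over all genes 24.0% to 39.6% and 31.3% to 38.2%), with medians of -0.040 to 0.310 over members, -0.046 to 0.019 over all genes, -0.047 to 0.041 for ceramide synthases, -0.465 to -0.410 for lipases, -0.133 to 0.509 for sphingoid base synthesis, 0.006 to 0.583 for omega-hydroxylation and acylceramide formation and 0.006 to 0.633 for breakdown. Signs turned for 17 members: Abca12 (-0.338 to 0.264), Aloxe3 (-0.375 to 0.043), Cers3 (-0.047 to 0.435), Cers4 (-0.175 to 0.594), Cers5 (-0.001 to 0.171), Cers6 (-0.534 to 0.096), Cyp4f39 (-0.542 to 0.616), Dgat2 (-0.289 to 0.773), Elovl1 (-0.575 to 0.963), Elovl6 (-0.570 to 0.129), Elovl7 (-0.249 to 0.564), Fa2h (-0.234 to 0.685), Lipm (-0.515 to 0.075), Lipn (-0.869 to 0.120), Sdr9c7 (-0.040 to 0.370), Sptlc3 (-0.718 to 0.626) and Ugcg (-0.431 to 0.289). The other 16 kept their sign under every alternative that gave a value; a mean of at least 5 FPKM left out Lipn and Degs2. The 95% interval held 0 for 31 of 33 members, all but Degs1 and Abhd5.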
